A study of Mus musculus with 30 samples.

Results

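The interferon regulatory factors are a family of transcription factors, and 7 of them, Irf1, Irf2, Irf3, Irf4, Irf5, Irf7 and Irf8, were followed here by their gene symbol in a count table of 25611 gene rows. Each symbol stood in 1 row, and all 7 passed the filter on low counts that left 14808 genes for testing. RNA had been sequenced from mouse dendritic cells that were grown out of bone marrow in medium with the cytokine FLT3L (200 ng/ml) for 6 to 7 days, in 30 libraries. The cells were labelled as knockout (KO) or wild type (WT) for Rubcn, whose protein is needed when phagocytosed cargo is tagged with LC3, in what is called LC3-associated phagocytosis. In each genotype 1 group was left untreated, and 4 groups received either ovalbumin protein (OVA) or apoptotic Jurkat cells, at 30 min or 4 h. Jurkat is an established human line of leukaemic T cells. There were 3 libraries per group and 10 groups. Separate mice or cultures are not named for them, so the tests measure the spread between libraries, which may in part be technical, and age, strain and the knockout allele are not given by the labels.

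Interferon regulatory factors bind DNA elements upstream of interferon genes and of interferon-induced genes. Irf3, Irf5 and Irf7 wait in the cytoplasm and are activated by phosphorylation when receptors such as Toll-like receptors, RIG-I or cGAS sense nucleic acids, whereas Irf1 and Irf7 are themselves interferon-induced, so that their transcript levels rise in a cell that has sensed interferon. Irf4 and Irf8 direct the development of dendritic cell subtypes, Irf8 that of type 1 conventional and of plasmacytoid cells and Irf4 that of many type 2 conventional cells.

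Total counts ran from 9.73 to 51.6 M per library (median 44.9 M). The members themselves held between 676 (Irf7) and 119054 counts (Irf8) in a library. Levels below are CPM, the counts per M counts of the scaled library size. A change was called at a false discovery rate (FDR) under 0.05 in edgeR's quasi-likelihood test over all 14808 genes. Rubcn itself was lower in KO in each condition without overlap, for example 70.4 to 75.8 CPM in untreated KO against 95.6 to 104.6 CPM in untreated WT, so most of its reads remained. All 6 markers shared by dendritic cells (Flt3, Itgax, Zbtb46, H2-Ab1, Cd74 and Dpp4) were present in each library. Replicate 2 of KO given Jurkat cells for 4 h stood apart from the other libraries of its group, with a chi-square per degree of freedom over all genes of 129 and 134 against them, where no other pair of libraries within a group exceeded 16.6. Calls of members and counts of list genes that change without it, in contrasts with its group, are given both ways. Levels, sums and shares are given with it. A change of a transcript in bulk RNA can stand for more RNA per cell or for more cells of a type that holds it, and these cannot be told apart.

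The members lie on 5 mouse chromosomes (mm10). Irf1 is on chromosome 11, 53770014 to 53778374, plus strand. Irf2 is on chromosome 8, 46739745 to 46847458, and Irf8 on the same chromosome, 120736358 to 120756692, both on the plus strand. Irf3 is at 44997648 to 45002848 on the plus strand of chromosome 7, and Irf7 at 141263183 to 141266424 on its minus strand. Irf4 is on chromosome 13, 30749233 to 30766981, and Irf5 on chromosome 6, 29526625 to 29541869, both on the plus strand. The end of the Irf5 interval shares 1043 bases with Tnpo3 on the other strand, and since the use of strand in counting is not given, reads there cannot be told apart.

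Because several members moved together, as described further on, their promoters were searched on both strands for 3 motifs in the 300 bases from 250 before to 50 after each start in RefSeq's promoter table (GRCm38.p6). The motifs were the core of the interferon-stimulated response element, which these factors bind (GAAA, any 2 bases, GAAA), the core of the gamma-activated site (TTC, any 3 bases, GAA) and a NF-kB core (GGG, any 5 bases, CC). All 7 members matched the table, with 9 windows in all. The response-element core stood in 1 member (Irf2) against 3.44% of 32851 promoters, the gamma-activated core in 3 members (Irf1, Irf2 and Irf8) against 8.3% of promoters, and the NF-kB core in all 7 against 50.8%. The stretches with the response-element or gamma-activated cores are shown for the 3 members that hold them. Irf8 holds the gamma-activated core more than once. Whether these motifs bear on the changes of the members was not tested. Capitals mark matches of the first or the second motif, which do not overlap one another in these stretches.
Irf1, chr11:53769894-53769962, plus strand: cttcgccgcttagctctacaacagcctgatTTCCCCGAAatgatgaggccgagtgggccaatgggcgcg
Irf2, chr8:46739495-46739559, plus strand: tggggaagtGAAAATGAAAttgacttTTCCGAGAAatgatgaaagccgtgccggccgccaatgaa
Irf8, chr8:120736157-120736243, plus strand: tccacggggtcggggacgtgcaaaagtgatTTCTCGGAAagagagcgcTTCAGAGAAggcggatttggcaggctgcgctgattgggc
A match is a run of letters and no measure of binding. The windows of Irf3, Irf4, Irf5 and Irf7 held neither the response-element core nor the gamma-activated core. This says only that these letters are absent from those windows.

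Per kb of exon, the scale on which levels of different genes can be set side by side, Irf8 led in untreated cells of both genotypes. In untreated WT its level was 645 ± 18.1 CPM per kb (SD, n = 3), followed by Irf5 at 131 ± 5.28, Irf7 at 65.7 ± 3.91 and Irf1 at 57.1 ± 1.42 CPM per kb. Irf3 stood at 39.2 ± 1.75, Irf2 at 35.8 ± 1.33 and Irf4 at 28.7 ± 0.267 CPM per kb, and no neighbours in this order overlapped between libraries. In untreated KO the order was Irf8 (613 ± 10.8), Irf5 (122 ± 4.10), Irf1 (48.4 ± 0.779), Irf3 (37.0 ± 1.63), Irf2 (35.4 ± 0.672), Irf7 (31.0 ± 0.795) and Irf4 (24.9 ± 0.380 CPM per kb). Irf7 thus ranked 3 in untreated WT and 6 in untreated KO, and Irf3 and Irf2 overlapped in KO.

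The order changed after 4 h of Jurkat cells. Irf7 then led with 1059 ± 113 CPM per kb in WT and 759 ± 67.2 in KO, above Irf8 with 572 ± 24.2 and 513 ± 35.6 CPM per kb, without overlap. Irf5 (260 ± 4.79 in WT, 226 ± 10.1 in KO) and Irf1 (251 ± 14.0 and 217 ± 14.8 CPM per kb) came next and overlapped each other in both genotypes. Irf2 followed with 77.7 ± 6.14 and 69.8 ± 3.27 CPM per kb. Irf3 (26.8 ± 0.300 and 29.3 ± 1.08) and Irf4 (10.8 ± 1.49 and 9.70 ± 0.243 CPM per kb) were last.

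**Figure D1:**
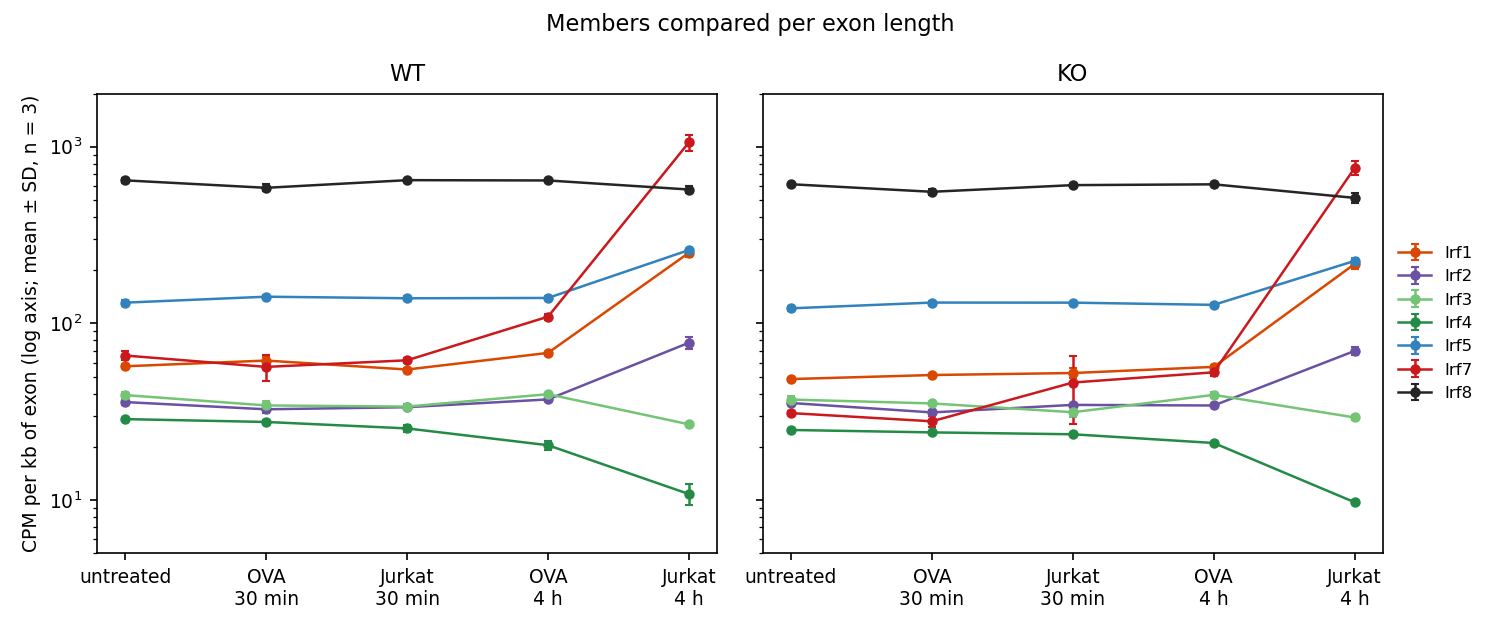
Level of each member in CPM per kb of exon (vertical log axis, mean ± SD, n = 3) by condition, WT on the left and KO on the right. Irf8 leads in each condition other than 4 h of Jurkat cells, where Irf7 reaches 1059 CPM per kb in WT and 759 in KO.

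In cells given apoptotic Jurkat cells for 4 h, Irf7, Irf1, Irf2 and Irf5 rose and Irf4, Irf3 and Irf8 fell against untreated cells, in WT as in KO. All 7 members were called in both genotypes, where 79.5% of all genes tested were called in WT and 78.5% in KO, so that a call alone says little here and the size of the change tells the members apart. The untreated libraries serve as controls for each treatment of their genotype, so the treatment contrasts are not independent of each other. The labels give no time for the untreated groups, so treatment and time in culture cannot be told apart in these contrasts.

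Irf7, the factor that amplifies type I interferon production, had the largest change of the 7. Its level in untreated WT was 158, 148 and 167 CPM in replicates 1, 2 and 3, and after 4 h of Jurkat cells 2297, 2828 and 2475 CPM. In KO it went from 76.3, 73.9 and 72.6 CPM to 1954, 1639 and 1854 CPM. Treated and untreated libraries lay far apart in both genotypes. The log2 fold change was 4.01 in WT (SE 0.165, edgeR FDR 2.96e-19, 16.1-fold) and 4.61 in KO (SE 0.170, FDR 2.56e-20, 24.4-fold).

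Irf1, an activator that interferon gamma induces, was 185, 195 and 192 CPM in untreated WT and 786, 876 and 851 CPM after 4 h of Jurkat cells. In KO its levels were 162, 164 and 159 CPM before and 762, 668 and 741 CPM after. No treated library came near an untreated one. The log2 fold changes were 2.14 in WT (SE 0.0489, edgeR FDR 3.67e-25) and 2.17 in KO (SE 0.0490, FDR 3.20e-25), which is 4.39-fold and 4.49-fold.

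Irf2, which binds the same element as Irf1 and can oppose it, rose from 87.5 to 93.3 CPM in untreated WT to 182, 211 and 188 CPM, and from 86.6 to 90.0 CPM in untreated KO to 180, 165 and 178 CPM. The groups did not overlap. Its log2 fold changes were 1.12 (SE 0.0446) in WT and 0.98 (SE 0.0445) in KO.

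Irf5, which acts below MyD88 on inflammatory cytokine genes, rose from 331, 350 and 359 CPM to 679, 702 and 682 CPM in WT, and from 309, 329 and 327 CPM to 622, 569 and 602 CPM in KO. Treated libraries were above untreated ones throughout. On the log2 scale the changes were 0.99 (SE 0.0377) and 0.89 (SE 0.0377), with edgeR FDRs of 4.80e-20 and 6.27e-19.

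Irf4 moved the other way. It fell from 135, 138 and 137 CPM in untreated WT to 45.05, 59.1 and 50.3 CPM, and from 121, 118 and 117 CPM in untreated KO to 45.8, 45.3 and 47.5 CPM. All 6 treated libraries were below all untreated ones. Its log2 fold change was -1.41 in WT (SE 0.0558, edgeR FDR 1.14e-19) and -1.36 in KO (SE 0.0559, FDR 3.33e-19), or 2.66-fold and 2.57-fold lower.

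Irf3, a constitutive factor controlled mainly by phosphorylation, fell by less. It was 81.9, 89.6 and 86.2 CPM in untreated WT and 58.1, 58.5 and 59.4 CPM after 4 h of Jurkat cells, and 77.1, 82.0 and 84.0 against 63.2, 62.5 and 66.9 CPM in KO. The groups did not overlap in either genotype. This made log2 fold changes of -0.55 in WT (SE 0.0479) and -0.34 in KO (SE 0.0475), with edgeR FDRs of 1.52e-11 and 2.38e-07.

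Irf8 had the smallest change on this scaling. It went from 2164, 2195 and 2284 CPM to 1917, 2061 and 1918 CPM in WT, and from 2080, 2088 and 2148 CPM to 1819, 1622 and 1846 CPM in KO. Its lowest and highest libraries of all 30 differed only 1.41-fold. Its log2 fold change was -0.17 in WT (SE 0.0424, edgeR FDR 0.000548) and -0.26 in KO (SE 0.0424, FDR 3.22e-06).

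These values rest on a scaling in which 4 h of Jurkat cells had factors of 0.765 to 0.842, against 1.03 to 1.07 in the other libraries. With total counts in place of the factors, the median of all genes moved to -0.42 in WT and -0.37 in KO, from -0.02 and -0.03. All 7 members kept their direction: Irf7 was then at 3.60 and 4.27, Irf1 at 1.73 and 1.83, Irf2 at 0.71 and 0.64, and Irf5 at 0.59 and 0.55 in WT and KO on the log2 scale. Irf3 moved to -0.95 and -0.68, and Irf8 to -0.58 and -0.60, so that Irf8 no longer had the smallest change in KO.

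**Figure D2:**
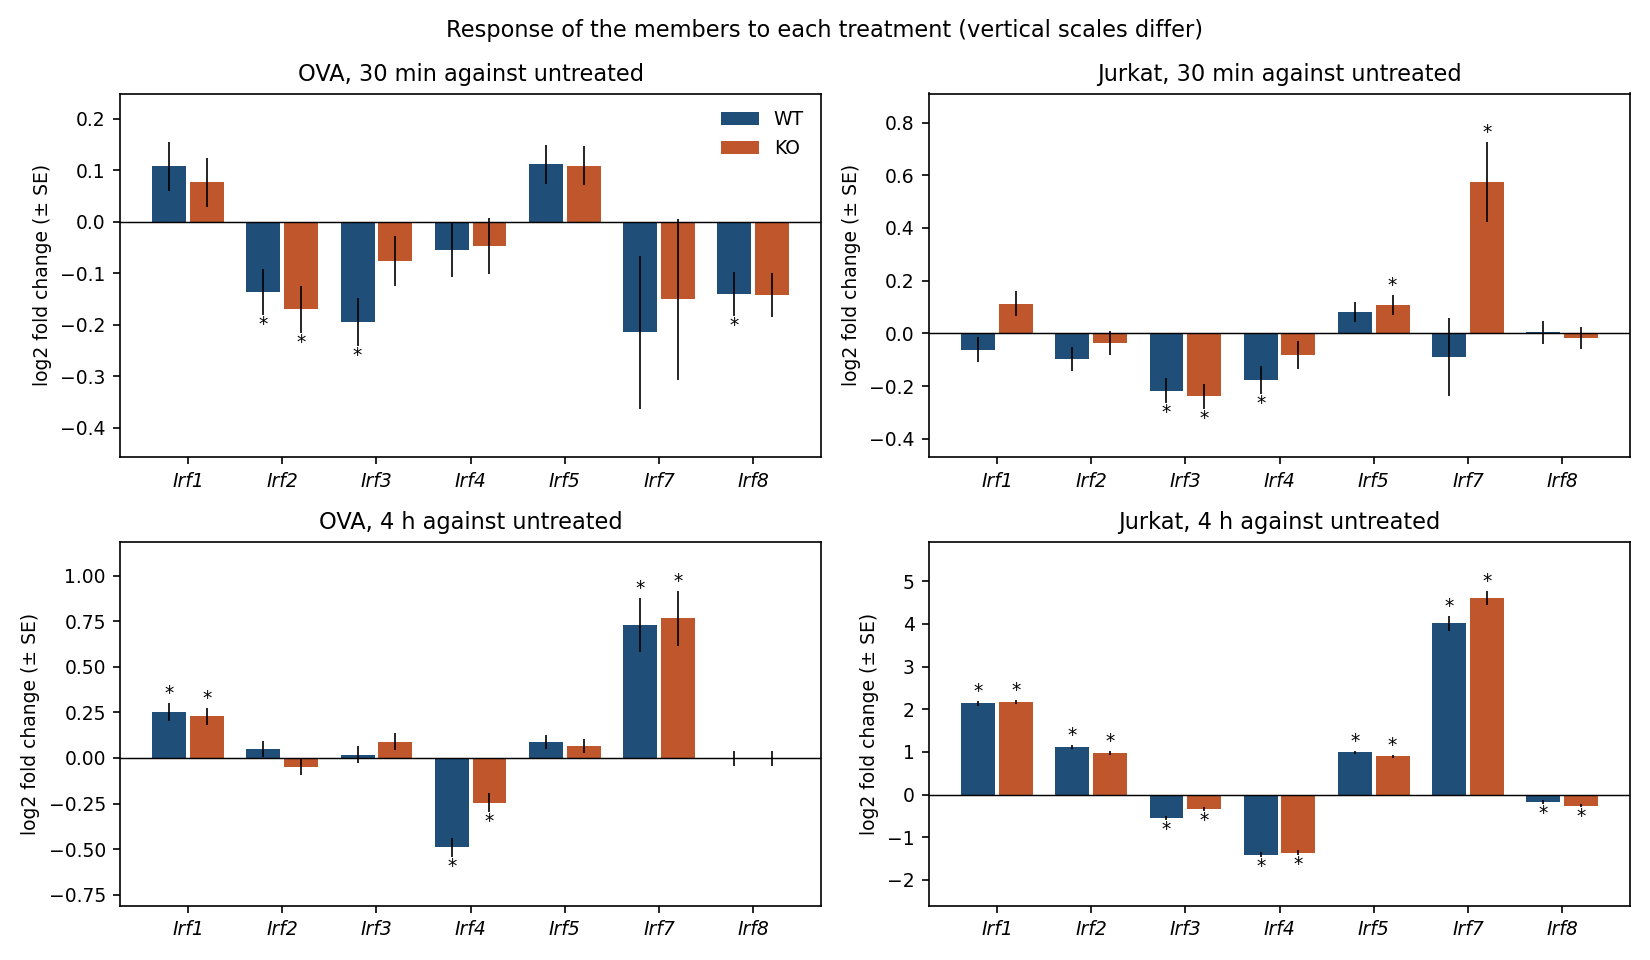
Log2 fold change of each member against untreated cells (bars, ± SE) in WT and KO, in 1 panel per treatment and time, with asterisks at an edgeR FDR under 0.05 and a vertical scale of its own in each panel. In the panel of Jurkat cells at 4 h, Irf7 reaches 4.01 in WT and 4.61 in KO, and Irf4 is the member with the largest fall.

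With 4 h of OVA, Irf7 and Irf1 were higher and Irf4 lower than in untreated cells of both genotypes, by less than with Jurkat cells. These 3 of 7 members were called in WT, where 23.5% of genes were called, and in KO, where 11.6% were. Irf7 was 250, 266 and 268 CPM in WT and 123, 133 and 123 CPM in KO, above all untreated libraries of its genotype, with log2 fold changes of 0.73 (SE 0.148, edgeR FDR 0.000490) and 0.77 (SE 0.151, FDR 0.000839). Irf1 was 225 to 229 CPM in WT and 185 to 194 CPM in KO, with log2 fold changes of 0.25 and 0.23 (edgeR FDR 0.000208 and 0.00141).

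Irf4 with 4 h of OVA was 96.8, 92.0 and 103 CPM in WT and 100.5, 100.2 and 99.7 CPM in KO, below untreated cells in each library. Its log2 fold changes were -0.49 (SE 0.0532, edgeR FDR 5.27e-08) in WT and -0.24 (SE 0.0533, FDR 0.00231) in KO. The difference between these responses, 0.25 on the log2 scale, was not called (FDR 0.374). Irf8 stayed at 2190 to 2254 CPM in WT and 2061 to 2158 CPM in KO, with log2 fold changes of -0.0019 and -0.0016 that were not called.

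Set against OVA at 4 h, Jurkat cells gave calls for all 7 members in both genotypes, where 77.5% of genes in WT and 76.4% in KO were called. The log2 fold changes in WT and KO were 3.28 and 3.84 for Irf7, 1.88 and 1.94 for Irf1, 1.07 and 1.03 for Irf2, and 0.90 and 0.83 for Irf5. Irf4 stood at -0.92 and -1.12, Irf3 at -0.57 and -0.43 and Irf8 at -0.17 and -0.26. The direction of each member was thus that of the contrast with untreated cells, with which it shares the Jurkat libraries.

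At 30 min few members had moved. With OVA, Irf2, Irf3 and Irf8 were called lower in WT (3 of 7, with 10.7% of genes called and 5.15% called lower) and Irf2 in KO (1 of 7, with 3.77% called and 1.88% lower). With Jurkat cells Irf3 and Irf4 were called lower in WT (2 of 7, with 28.7% called and 14.5% lower). In KO given Jurkat cells for 30 min, Irf3 was called lower and Irf5 and Irf7 higher (3 of 7, 17% of genes). Over both times and agents 15 of 28 values were thus called in WT and 14 of 28 in KO, where 35.6% and 27.7% of all such values over the genes tested were. Apart from Irf7, the 30 min calls ran from -0.24 to 0.11 on the log2 scale. With OVA, the WT calls of Irf2 and Irf8 were lost in a fit of the groups compared (FDR 0.111 and 0.112) and without WT OVA replicate 1 (0.254 and 0.208), among other libraries. The value of Irf8 in KO was the same, -0.14, with an FDR of 0.0562 by edgeR and 0.0231 by DESeq2. The WT call of Irf3 was lost without that WT library (0.0664) or untreated WT replicate 2 (0.0568). The KO calls of Irf2 with OVA and of Irf5 with Jurkat cells were lost without most single libraries (FDR up to 0.144 and 0.205), and that of Irf4 in WT without WT Jurkat replicate 1 (0.0586).

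Irf3 with Jurkat cells at 30 min was the member whose early fall held in both genotypes. It was 73.3, 76.5 and 72.0 CPM in WT and 65.1, 67.5 and 73.6 CPM in KO, below the untreated libraries of the same genotype. These made log2 fold changes of -0.22 (SE 0.0468, edgeR FDR 0.000865) and -0.24 (SE 0.0470, FDR 0.000604).

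The call of Irf7 in KO at 30 min of Jurkat cells rested on 1 library. Replicate 1 of that group held 163 CPM, near the WT libraries (153, 148 and 143 CPM), and replicates 2 and 3 held 79.9 and 88.5 CPM, near the untreated KO libraries. The log2 fold change against untreated KO was 0.57 (SE 0.151, edgeR FDR 0.0083) with this library and 0.18 (FDR 0.242) without it, and the call was also lost in a fit of only the groups compared (FDR 0.130). What set this library apart was not tested.

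With Jurkat cells against OVA at 30 min, Irf1 was lower (-0.17 on the log2 scale, edgeR FDR 0.00928) and Irf8 higher (0.14, FDR 0.0128) in WT, 2 of 7 with 24.3% of genes called. The call of Irf8 was lost without WT OVA replicate 1 (FDR 0.0985) or WT Jurkat replicate 2 (0.0521). In KO, Irf7 was higher and Irf3 lower (2 of 7, 10.2% of genes). The log2 fold change of Irf7 there was 0.73 (FDR 0.00267), and without the library at 163 CPM it was 0.33 (FDR 0.0385). The call was lost in a fit of only the groups compared (0.73, FDR 0.0957). That of Irf3 was -0.16 (FDR 0.0313), a call lost without this library (0.178) and without each of 4 others. Over both times and genotypes, 18 of 28 values of Jurkat cells against OVA were called, where 47.1% of all such values over the genes tested were.

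**Figure D3:**
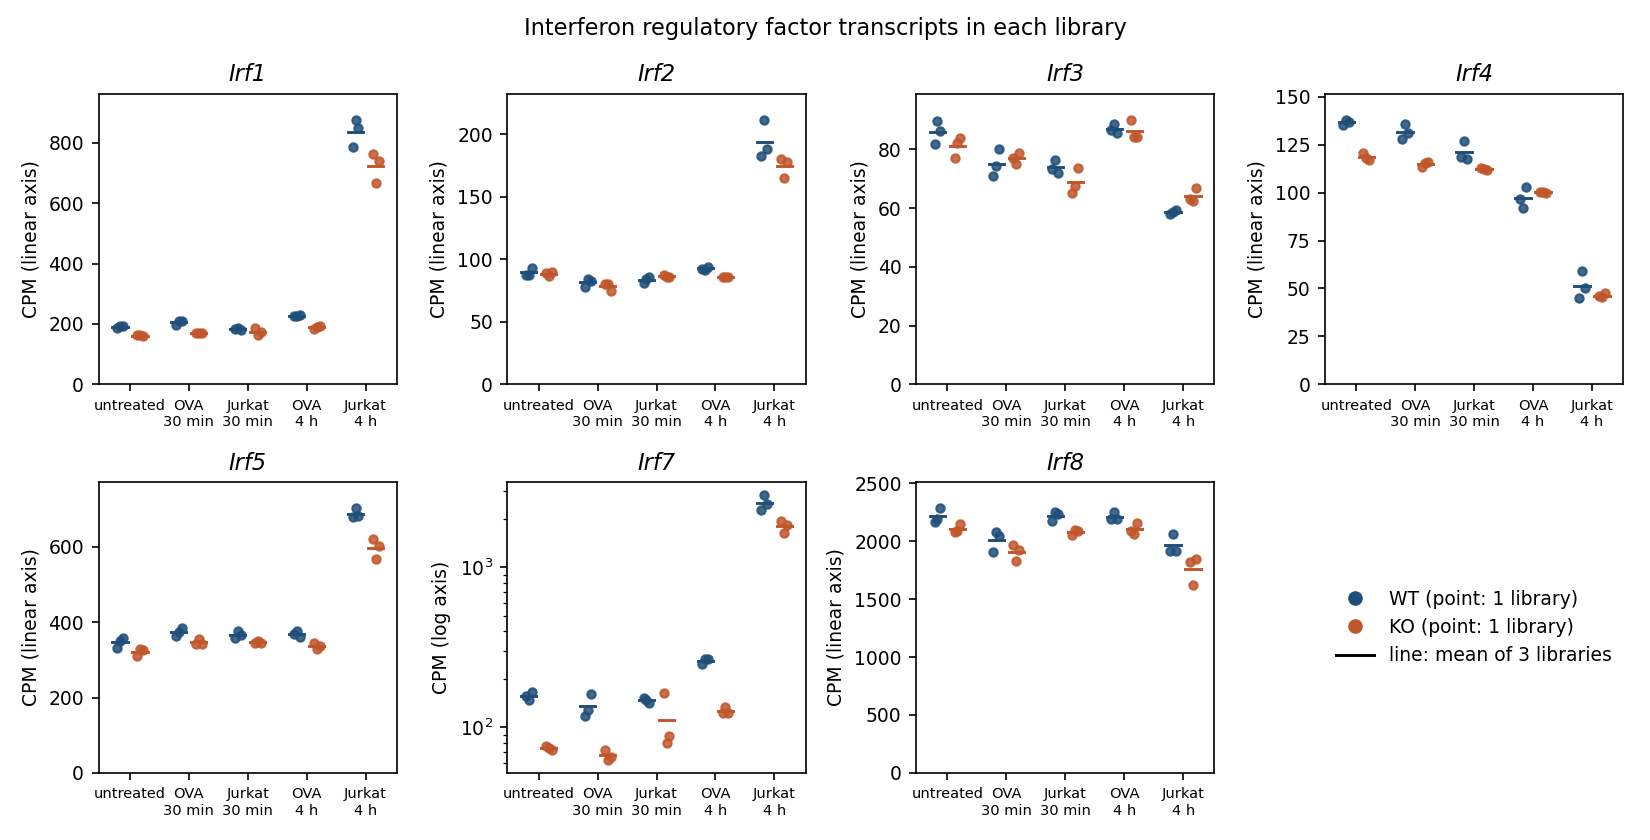
CPM of each member in each of the 30 libraries (points) with the mean of 3 libraries (lines), WT in blue and KO in orange, by condition. The Irf7 panel has a log axis and the others start at 0, and the KO library at 163 CPM stands apart from the other KO libraries given Jurkat cells for 30 min.

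Between genotypes, the called differences all had KO below WT. Over the 5 conditions 14 of 35 values were called, with 0 higher and 14 lower, where 13.4% of all such values over the genes tested were called in either direction. By condition, Irf1, Irf4 and Irf7 were lower in untreated KO, 3 of 7 where 9.97% of genes were called and 3.97% were called lower. The same members were lower with 30 min of OVA (12.4% of genes called, 6.13% lower). With 4 h of OVA they were Irf1, Irf5 and Irf7 (12.6% called, 6.35% lower), and with 4 h of Jurkat cells Irf1, Irf2, Irf5, Irf7 and Irf8, 5 of 7 (22.9% called, 13.5% lower). With 30 min of Jurkat cells 0 of 7 were called by edgeR (9.25% of genes), and DESeq2 called 0. An unadjusted edgeR p under 0.05 was held by 5 of 7. The share of all genes at that looser threshold is not given, so this count cannot be set against the 9.25%.

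Irf7 had the largest genotype difference. Its untreated libraries held 72.6 to 76.3 CPM in KO and 148 to 167 CPM in WT, and with 30 min of OVA 72.1, 62.9 and 65.2 CPM in KO against 118, 128 and 161 CPM in WT. With 4 h of OVA, KO libraries (123, 133 and 123 CPM) were again below WT ones (250, 266 and 268 CPM). In these 3 conditions KO thus held 0.472, 0.492 and 0.484 of the WT mean. On the log2 scale the differences were -1.08 (SE 0.151, edgeR FDR 1.29e-05), -1.02 (SE 0.155, FDR 5.24e-05) and -1.05 (SE 0.150, FDR 1.14e-05).

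With Jurkat cells the gap in Irf7 was smaller in value. At 30 min the log2 fold change was -0.42 (SE 0.149, edgeR FDR 0.0799), and without the KO library at 163 CPM it was -0.81 (FDR 1.47e-06). With no filter on low counts it was also called (FDR 0.0430). At 4 h KO libraries held 1639 to 1954 CPM and WT libraries 2297 to 2828 CPM, without overlap, with a log2 fold change of -0.48 (SE 0.146, FDR 0.0169). That call was lost without KO replicate 2, the library that stood apart (-0.41, FDR 0.0871), or without WT replicate 2 (FDR 0.0981).

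Irf1 was lower in KO by a small and even amount. Untreated KO libraries held 159 to 164 CPM and WT libraries 185 to 195 CPM, and with 4 h of OVA 185 to 194 CPM stood against 225 to 229 CPM. Its log2 fold change was -0.24 untreated, -0.27 with 30 min of OVA, -0.26 with 4 h of OVA and -0.21 with 4 h of Jurkat cells, with SEs of 0.0468 to 0.0480 and edgeR FDRs of 0.000961, 0.000304, 0.000243 and 0.00154. KO and WT did not overlap in any of these 4 conditions. With 30 min of Jurkat cells they did, and the value was -0.07 (FDR 0.442).

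Irf4 was 117 to 121 CPM in untreated KO and 135 to 138 CPM in untreated WT, with a log2 fold change of -0.20 (SE 0.0529, edgeR FDR 0.0112). With 30 min of OVA it was also -0.20 (FDR 0.0155), a call lost without KO replicate 1 (FDR 0.0530) or 2 (0.0625) or WT replicate 2 (0.0805). After 4 h of either treatment the genotypes overlapped and edgeR called no difference, though the value with Jurkat cells (-0.15, FDR 0.0547) was called by DESeq2 (-0.17, FDR 0.0225) and without WT replicate 1 (-0.24, FDR 0.00128).

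Irf5 was below WT in all KO groups without overlap, by -0.20 to -0.08 on the log2 scale, and was called by edgeR at 4 h only, with OVA (-0.13, edgeR FDR 0.0196) and with Jurkat cells (-0.20, FDR 0.000226). Untreated, it stood at -0.11 with an edgeR FDR of 0.0701 and a DESeq2 FDR of 0.0114. With 30 min of OVA its edgeR FDR was 0.0531 and that of DESeq2 0.00914. The call with 4 h of OVA was lost with total counts (FDR 0.0857) and without KO OVA replicate 2 (0.101) or 3 (0.0575) or WT OVA replicate 1 (0.0618) or 2 (0.0913). Irf2 (-0.15, FDR 0.0111) and Irf8 (-0.16, FDR 0.00746) were called with 4 h of Jurkat cells, and both calls were lost with total counts (FDR 0.171 and 0.140). They were also lost without replicate 2 of KO (FDR 0.0962 and 0.0897) or of WT (0.156 and 0.0651).

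Irf3 was the one member not called between genotypes in any condition, though some alternative settings called it. Its value with 4 h of Jurkat cells was 0.13 (edgeR FDR 0.0550), with KO libraries at 62.5 to 66.9 CPM above WT libraries at 58.1 to 59.4 CPM. With total counts it was 0.21 and was called (FDR 0.00247).

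**Figure D4:**
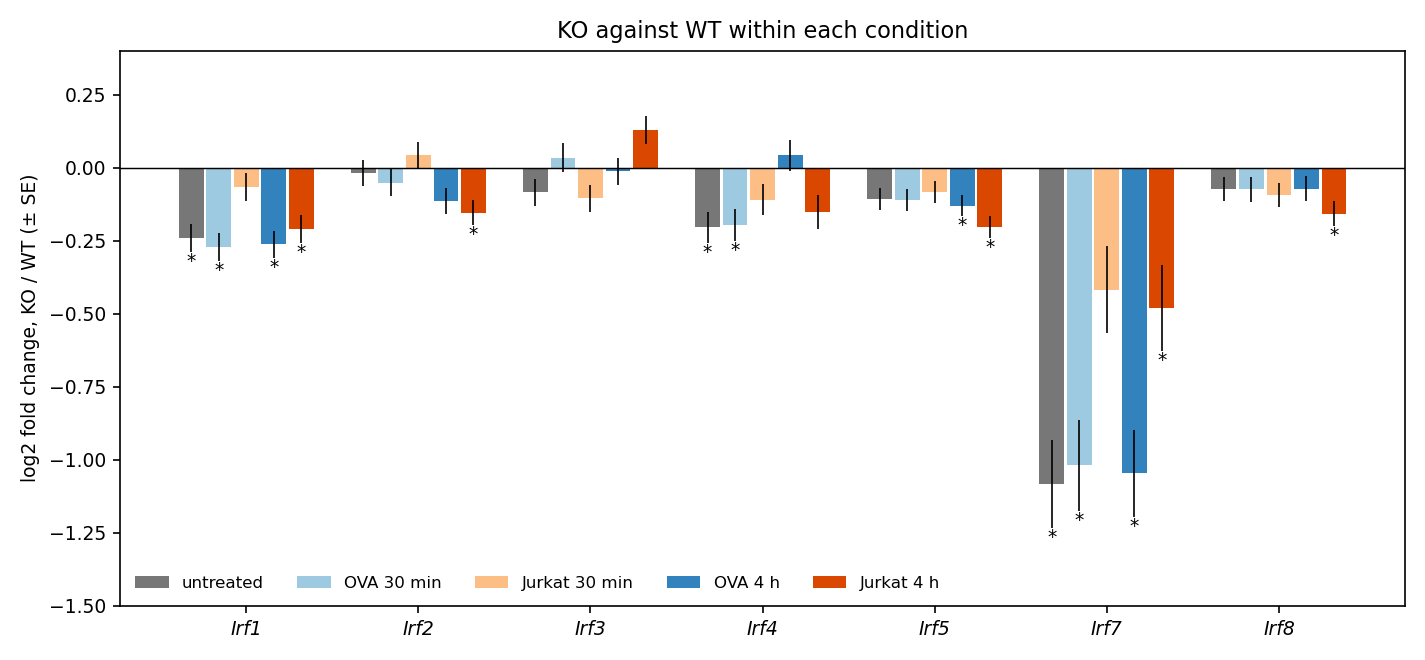
Log2 fold change of KO against WT (bars, ± SE) for each member in each of the 5 conditions, with asterisks at an edgeR FDR under 0.05. Irf7 is near -1 untreated and with OVA and at -0.48 with 4 h of Jurkat cells, and no bar above 0 is called.

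The difference of the KO and WT responses to each treatment was tested next. By edgeR 0 of 28 values were called, and DESeq2 called 1. Over all genes tested, 0% were called with 30 min of OVA, 0.00675% with 30 min of Jurkat cells, 0.0405% with 4 h of OVA and 4.26% with 4 h of Jurkat cells, or 1.08% of all such values. At an unadjusted p under 0.05 there were 0, 2, 1 and 3 of 7 members for 30 min of OVA, 30 min of Jurkat cells, 4 h of OVA and 4 h of Jurkat cells. No share of all genes is given at this looser threshold, so these counts cannot be set against the shares above. The largest value at 4 h of Jurkat cells was that of Irf7, 0.60 on the log2 scale (SE 0.209, edgeR FDR 0.0973), a larger fold rise in KO from a lower start. It was called with total counts (0.67, FDR 0.0497) and in a fit of only the groups compared (0.64, FDR 0.00226). Irf3 followed with 0.21 (SE 0.0674, FDR 0.0691), and it was called by DESeq2 (FDR 0.0478), with the stricter filter (0.0485), with total counts (0.0157) and without untreated WT replicate 1 (0.0435). For Irf7 at 30 min of Jurkat cells the value was 0.67 (FDR 0.424). It was 0.27 (FDR 0.810) without the KO library at 163 CPM, and it was called without KO replicate 2 (0.85, FDR 0.0289).

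Irf9, another member of the family, works with STAT2 in the complex that carries the type I interferon signal. It was 122 ± 3.53 CPM in untreated KO and 156 ± 3.45 CPM in untreated WT (SD, n = 3). It was lower in KO untreated (-0.35 on the log2 scale), with 30 min of OVA (-0.42), with 30 min of Jurkat cells (-0.25) and with 4 h of OVA (-0.34), with edgeR FDRs of 4.15e-06, 4.93e-07, 0.000515 and 4.08e-06. With 4 h of Jurkat cells Irf9 reached 256 ± 11.3 CPM in KO and 269 ± 6.53 CPM in WT, a difference of -0.07 that was not called (FDR 0.289). The difference of response was called for Irf9 (0.28, SE 0.0642, FDR 0.0111).

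Among 17 partners and regulators of the family, 12 rose and 3 fell after 4 h of Jurkat cells in each genotype, where 79.5% (WT) and 78.5% (KO) of all genes were called. Without the KO library that stood apart, 13 rose and 3 fell in KO. The median of the 17 was 0.41 in WT and 0.25 in KO on the log2 scale, against -0.02 and -0.03 over all genes. Batf, the partner of Irf4 and Irf8 at composite elements, rose by 2.81 in WT and 2.59 in KO, and Stat2 by 2.24 and 2.31. In KO against WT, 5 of the 17 were lower and 1 higher untreated (9.97% of all genes called), and 6 and 1 with 4 h of Jurkat cells (22.9%), or 4 and 0 without the KO library that stood apart. Spib, which marks plasmacytoid cells, was lower in KO with 4 h of Jurkat cells (-0.43, FDR 1.80e-05).

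Of 27 genes of the receptors, adaptors and kinases that activate these factors, 18 rose and 6 fell with 4 h of Jurkat cells in WT, and 19 and 6 in KO, near the 79.5% and 78.5% of all genes called, with medians of 0.68 and 0.66. Ikbke, a kinase that phosphorylates Irf3 and Irf7, rose by 2.94 in WT and 2.98 in KO on the log2 scale, and Myd88, the adaptor of most Toll-like receptors, by 1.68 and 1.64. Called differences between genotypes were lower in KO except for 1 gene with 30 min of OVA: 7 of 27 untreated (9.97% of all genes called), 9 with 30 min of OVA (12.4%), 11 with 4 h of OVA (12.6%), 2 with 30 min of Jurkat cells (9.25%) and 13 with 4 h of Jurkat cells (22.9%). The 9.25% is the share with the KO library at 163 CPM, and without that library the count with 30 min of Jurkat cells was 5 lower. With 4 h of Jurkat cells it was 8 lower and 1 higher without the KO library that stood apart. Ddx58, which encodes the RNA sensor RIG-I, was 43.1 ± 3.55 CPM in KO and 73.1 ± 4.41 CPM in WT with 4 h of OVA (log2 fold change -0.76, edgeR FDR 0.000139). Mb21d1, which encodes the DNA sensor cGAS, stood at -0.38 there (FDR 9.75e-06). Tbk1, the kinase that acts on Irf3, was at -0.20 with 4 h of Jurkat cells (FDR 0.000106).

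Of 30 target genes, 27 rose and 3 fell with 4 h of Jurkat cells in either genotype, where 79.5% (WT) and 78.5% (KO) of all genes were called. Tnf rose by 7.10 in WT and 7.08 in KO on the log2 scale, and Klf4, which Irf8 induces in monocyte precursors, stood at -3.68 and -3.61. With 4 h of OVA, 18 rose and 1 fell in WT (23.5% of all genes called) and 13 rose and 0 fell in KO (11.6%). In KO against WT, 9 were lower and 1 higher untreated (9.97% of all genes called), 8 and 1 with 30 min of OVA (12.4%), 14 and 1 with 4 h of OVA (12.6%) and 12 and 1 with 4 h of Jurkat cells (22.9%). The last count was 10 and 1 without the KO library that stood apart. Ifnb1, the interferon beta gene, had no count in any untreated library, and with 4 h of Jurkat cells it was 3.34 to 4.17 CPM in KO and 9.68 to 15.8 CPM in WT (log2 fold change -1.77, edgeR FDR 3.86e-06). Ccl5 was at -0.71 with 4 h of OVA (FDR 1.68e-08) and Il15 at -0.82 with 4 h of Jurkat cells (FDR 3.84e-07).

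With 30 min of Jurkat cells the target list went the other way, with 11 higher and 4 lower in KO (9.25% of all genes called) and a median of 0.48. Without the KO library in which Irf7 was at 163 CPM, 5 were higher and 7 lower and the median was -0.002. Against untreated KO, 18 of 30 were higher with this library (17% of all genes called) and 16 without it, and the median went from 1.66 to 0.68. Both shares are from the fit with this library, so the counts without it have no share beside them.

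Across the 24 libraries outside 4 h of Jurkat cells, the genes whose log2 CPM ran closest to each member were found among 10223 genes with a mean of at least 5 CPM. For Irf7 they were Oasl2 (Pearson r 0.989), Gbp6 (0.986) and Parp12 (0.982), and 105 genes had an r of at least 0.9. For Irf1 they were Eif2ak2 (0.959), Ifi207 (0.956) and Il15ra (0.955). Irf3 ran closest to Lrrc45 (0.935), Rnf181 (0.931) and Proser3 (0.924), and Irf4 to Ago4 (0.942), Pdcd4 (0.934) and Ccpg1 (0.917). Irf8 ran closest to St3gal2 (0.943), Cnp (0.916) and Rcsd1 (0.907), and no gene reached 0.9 for Irf2 or Irf5. Between the members themselves, Irf1 and Irf7 had the highest r, 0.889, and Irf4 ran with none of them (-0.24 to 0.08). These values describe libraries that share genotype and treatment, so they are no count of independent samples.

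Markers of the dendritic cell subtypes moved with the Jurkat cells, not all in the direction of Irf4 and Irf8. The summed level of 8 type 2 conventional markers went from 1716 to 1782 CPM in untreated WT to 1029 to 1094 CPM after 4 h of Jurkat cells. Of the 8, 6 were called lower and 2 higher, where 79.5% of all genes were called. In KO the sum went from 1833 to 1968 CPM to 1187 to 1271 CPM, with 5 lower and 2 higher (78.5% of all genes called). The summed level of 8 type 1 conventional markers went from 2879.9 to 3106 CPM in untreated WT to 2001 to 2136 CPM (5 lower, 2 higher), and in KO from 3064 to 3151 CPM to 1962 to 2261 CPM (6 lower, 2 higher). The sum of 11 plasmacytoid markers rose instead, on average from 2859 to 3833 CPM in WT and from 2532 to 3178 CPM in KO. Of the 11, 5 were called higher and 6 lower in WT, and 4 and 6 in KO. The mean sum of the 6 shared markers rose from 15152 to 26511 CPM in WT and from 15613 to 25799 CPM in KO. Of these, 3 were called higher and 2 lower in each genotype. As with the members, a call alone says little where so many genes were called. None of these markers was at 0 in any group. Between genotypes, 3 of 8 type 2 markers were called higher in untreated KO and 0 lower (9.97% of all genes called). With 4 h of Jurkat cells 6 of 8 were higher and 0 lower (22.9%), or 5 of 8 without the KO library that stood apart. Irf4 was lower in untreated KO. The part of these cells in the levels of Irf4 and Irf8 was not tested.

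Markers of other cell types moved with the genotype and with the Jurkat cells. The summed level of 11 plasmacytoid markers was 2474 to 2627 CPM in untreated KO and 2832 to 2902 CPM in untreated WT. In KO 5 of the 11 were lower and 1 higher untreated (9.97% of all genes called), and none was at 0. Plasmacytoid cells hold much Irf7, and Bst2 in this list is itself interferon-induced. Without Bst2, a sum chosen after seeing the data, KO held 0.906 of the WT mean untreated, where Irf7 was at 0.472. With OVA these shares were 0.827 and 0.492 at 30 min and 0.901 and 0.484 at 4 h. With Jurkat cells they were 0.927 and 0.749 at 30 min and 0.846 and 0.717 at 4 h. The 30 min shares with Jurkat cells include the KO library in which Irf7 was at 163 CPM. The part of these cells in the lower Irf7 was not tested.

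The summed level of 7 stromal markers was higher in KO, 701 to 880 CPM untreated against 546 to 626 CPM in WT. Of the 7, 5 were called higher (9.97% of all genes called in either direction), 1 was under 1 CPM and none was at 0. The summed level of 20 T-lineage genes, which reads of the Jurkat cells can enter, was 69.9 to 89.4 CPM in libraries without Jurkat cells. With 30 min of Jurkat cells it was 110 to 123 CPM in KO and 137 to 144 CPM in WT, and with 4 h 167 to 191 and 200 to 247 CPM. Cd3d, too low to be tested, was the one list gene outside the test. How far human reads entered the counts of the members was not tested.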

How the data were processed

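Per the labels' protocols, total RNA was made into libraries with a TruSeq RNA kit. The authors deposited a single table of raw counts, whole numbers for each gene, with mm10 intervals. The submitters' processing notes name STAR 2.5, Subread, featureCounts 1.5.0-p1 and DESeq2, with no annotation or strand setting. Groups and replicate numbers came from the sample titles. The counts were fitted in edgeR 4.0.16 (R 4.3.3) with TMM factors, filterByExpr by group, 1 mean per group over all 30 libraries and two-sided quasi-likelihood F tests, with Benjamini-Hochberg adjustment over 14808 genes. The standard error is the size of the log2 fold change over the square root of F. CPM per kb uses the union of GENCODE vM21 exons. The test was checked on simulated counts with the same spread for all genes. That check does not cover genes of larger spread or libraries that stand apart.

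Members, gene lists and tests were chosen with earlier results of these data known. Named were all 7 members, for each of them up to 3 genes of closest pattern with r of at least 0.9, Irf9, and up to 3 genes of each list by smallest p in each kind of comparison, apart from results that are not reported here. Ifnb1, Ddx58 and Irf9 are also given in further conditions chosen after their values were seen. The common biological coefficient of variation was 0.0515. The closest 2 libraries of a group differed by a chi-square per degree of freedom of 2.28, so none was a copy of another. Alternatives were DESeq2's size factors, total counts, no filter, a stricter filter (5 CPM in 3 libraries), replicate number as a block, a fit of the compared groups only, DESeq2 1.42.0 and each library left out.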

Additional observations from a re-analysis of the deposited data

Results flagged for a closer look

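A difference between the KO and WT responses was called by edgeR for Irf9 with 4 h of Jurkat cells. Irf9 rose by 0.79 on the log2 scale in WT and by 1.07 in KO, and the difference was 0.28 (FDR 0.0111). Irf9 was lower in untreated KO than in untreated WT, and the genotype difference was not called after 4 h of Jurkat cells.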

How the results depend on the processing

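No called value of a member changed direction under any alternative run. Of 1141 values under other settings 1093 kept their side of the threshold, 31 gained a call and 17 lost it, and of 1050 values with 1 library left out 998 kept it, 9 gained a call and 43 lost it. The count of called differences of response, 0 of 28, was 1 with DESeq2, 1 with the stricter filter, 1 in a fit of only the groups compared and 2 with total counts, and 0 to 1 with a library left out. With a library left out the other counts ran from 12 to 17 (KO against WT, 14 of 35), 12 to 16 (treatment in WT, 15 of 28), 12 to 15 (treatment in KO, 14 of 28) and 17 to 21 (Jurkat against OVA, 18 of 28). Deviations from the group means had a mean r of 0.05 between same-numbered libraries within a genotype and -0.01 across genotypes. For other numbers within a genotype it was -0.02. Within a genotype, 22 of 60 same-numbered pairs exceeded an r of 0.1 (highest 0.56), against 29 of 120 other pairs (highest 0.35). Of 30 libraries, 11 correlated best with their own number. Whether same-numbered libraries were handled together is not given by the labels. The replicate block across genotypes gave counts of 15, 14, 15, 0 and 19 for KO against WT, treatment in WT, treatment in KO, difference of response and Jurkat against OVA, and the block within genotypes 16, 15, 0 and 20 for the last 4. Over all 30 libraries the r of Irf8 with St3gal2, Cnp and Rcsd1 was -0.17, -0.36 and -0.42, so the likeness holds only without 4 h of Jurkat cells. Of 1080 values of list genes 1057 kept their side of the threshold, and 0 reversed. The libraries' depth bears least on Irf8 and most on Irf2 and Irf7, whose smallest counts were 775 and 676. Both counts are from replicate 3 of KO given OVA for 30 min, the library of 9.73 M, which enters the contrasts with that group.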
